A study of Drosophila melanogaster with 6 samples.

Results

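Complex I of the respiratory chain was examined through its nuclear genes, taken as every gene whose symbol in the deposited comparison table begins with ND-. This rule, which uses no measured value, gave 40 of the 17494 genes counted. The data are 3 WT and 3 M1BP RNAi libraries of polyA RNA from myoblasts of the *Drosophila melanogaster* wing disc, the precursors of the flight muscles. Animals were raised at 25 °C and taken at 0 h after puparium formation (APF). Both genotypes carried Mef2-GAL4, a driver of the muscle lineage, together with UAS-GFP::Gma, whose fluorescence was used to sort the cells. The M1BP RNAi animals carried in addition UAS-M1BP RNAi #1, so a single RNAi line stands for the knockdown, and no control hairpin is named for WT. Each preparation pooled 30 to 35 wing discs. M1BP (Motif-1-binding protein) recognises Motif 1, an element of core promoters, and the comparison asks which transcripts depend on it in these cells. The labels number the libraries of each genotype and nothing in them says how separate the animals behind them were, so p-values measure the spread between these libraries.

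Complex I, or NADH:ubiquinone oxidoreductase, is the entry point of most electrons into the respiratory chain. Its matrix arm takes electrons from NADH through a flavin and a row of iron-sulphur clusters to ubiquinone, and its membrane arm pumps protons across the inner mitochondrial membrane. The catalytic core is shared with bacteria, with the hydrophobic core subunits of the membrane arm encoded by the mitochondrial DNA and those of the matrix arm by the nucleus, while a large set of accessory subunits, all nuclear, surrounds the core. Flight muscle is among the tissues richest in these complexes, and the sorted cells are its undifferentiated precursors.

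The sequences shown first are those that bear on a factor that reads Motif 1. The study's supplementary promoter scan, on dm6, lists an 18-base stretch for 24 of the 40 genes, the best match to the M1BP matrix in the window around the start site, and 7 of the 24 (29.2%) held the uninterrupted core GGTCACACT. Among the other listed promoters of respiratory genes, 14 of 55 (25.5%) held it, and the share over all promoters was not computed because no genome sequence was used here. Stretches are written in the direction of the motif, with bases 6 to 14 in capitals, which are the bases aligned with the core. Of the 7 genes that held the core, ND-B14 and ND-MWFE are named only. The scanned windows of the other 5 were chr2L:5100238-5100538 (ND-13A), chrX:19492171-19492471 (ND-18), chr3L:1329699-1329999 (ND-ACP), chr2L:15751028-15751328 (ND-B17) and chr2L:3465907-3466207 (ND-PDSW).
ND-13A: tcagcGGTCACACTggtt
ND-18: cgcctGGTCACACTggca
ND-ACP: catacGGTCACACTgcta
ND-B17: agtgcGGTCACACTggcg
ND-PDSW: actgcGGTCACACTggct
The 5 catalytic core genes in the scan are shown for contrast, since none held the uninterrupted core. ND-20, ND-51 and ND-75 matched it at 7 of the 9 bases and ND-24 and ND-30 at 6, and for ND-23 no stretch was listed.
ND-20: gcggcGGTCACATCatac
ND-24: tgcccACTCACTCTgctc
ND-30: tgtacGTTAACACCgaat
ND-51: aatacGTCCACACTgtat
ND-75: actacAGTAACACTtgaa
A match describes the letters of a promoter and is not a measured binding site.

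The libraries held between 43086545 and 51855156 counts, and 10306 genes passed the filter on low counts. For M1BP the counts were 5821, 5288 and 5589 in WT and 1386, 1703 and 1671 in M1BP RNAi. It fell by 1.72 on the log2 scale (SE 0.0999, adjusted p = 1.4e-05, edgeR quasi-likelihood, Benjamini-Hochberg), to 30.5% of the WT mean, and leaving out any 1 library gave between -1.81 and -1.61. The myoblast label was borne out by twi, between 868 and 967 RPKM (counts scaled to the normalised library size and to the exonic length), and Him, between 3330 and 4100 RPKM. The summed level of all 10 myoblast markers lay between 5417 and 6174 RPKM in WT and between 5221 and 5675 in M1BP RNAi. Of the 10, 7 had log2 fold changes below 0 and 3 above, and none reached an adjusted p of 0.05. The 4 fat body markers summed to at most 0.155 RPKM in any library while the 6 markers of differentiated muscle summed to between 6.798 and 9.49 in WT and between 9.55 and 12.2 in M1BP RNAi, without overlap. All 4 muscle markers that were tested had log2 fold changes above 0 (median 0.87), and none reached an adjusted p of 0.05. At an unadjusted p under 0.05 there were 2, beside 10.1% of all tested genes with such a p and a higher value. M1BP RNAi replicate 3 stood out, with Act88F at 5.19 RPKM against 2.39 and 2.62 in replicates 1 and 2, and Mhc at 0.541 against 0.13 and 0.115. The level of sls lay between 4.85 and 7.13 RPKM in WT and between 6.1 and 7.69 in M1BP RNAi, with overlap. The 6 epithelial markers summed to between 368 and 445 RPKM in WT and between 351 and 386 in M1BP RNAi, with overlap. Of these, nub and grh stayed at or below 0.64 RPKM, while shg, Egfr, ap and sd lay between 64.3 and 166 RPKM. All 6 had log2 fold changes below 0 (median -0.20), and none reached an adjusted p of 0.05. The 4 tracheal markers summed to between 7.71 and 17.5 RPKM in WT and between 5.30 and 9.12 in M1BP RNAi, with overlap. Of these, 3 had log2 fold changes below 0 and 1 above. The 4 neuronal markers summed to between 2.74 and 3.27 RPKM. The 5 haemocyte markers summed to between 4.41 and 6.55 RPKM in WT and between 3.26 and 4.17 in M1BP RNAi, without overlap. All 3 that were tested had log2 fold changes below 0 (median -0.95), and none reached an adjusted p of 0.05. At an unadjusted p under 0.05 there were 2, beside 10.1% of all tested genes with such a p and a lower value. The part of the muscle, epithelial, tracheal and haemocyte markers in the values below was not tested. In bulk RNA, fewer cells of a type and less RNA per cell cannot be told apart.

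Nearly all subunit genes were well expressed in the myoblasts. Of the 40 genes, 36 passed the filter. These were 34 genes for subunits and 2 of the 6 paralogs, genes named after a subunit with a final L, L1 or L2. Of the subunit genes, 32 of the 34 exceeded 20 RPKM in the WT mean, with a median of 60.0. The 34 kept almost the same order in every library, with Spearman's rho between 0.984 and 0.994 over the 15 pairs of libraries. This is a correlation across genes and describes how alike the libraries are. All members together took between 0.228% and 0.271% of the counts of a library. Of the 40 genes, 17 share exonic bases with another gene. The use of strand in the counting was not given in the sources used here. The fat body marker Lsp2 (13 counts over all libraries) and the muscle marker fln (4 counts) each had the same total as an opposite-strand gene. These pairs share 2096 and 801 exonic bases. Reads of opposite genes were thus counted for both genes in these pairs, so values of overlapping members may hold reads of their neighbours.

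**Figure D1:**
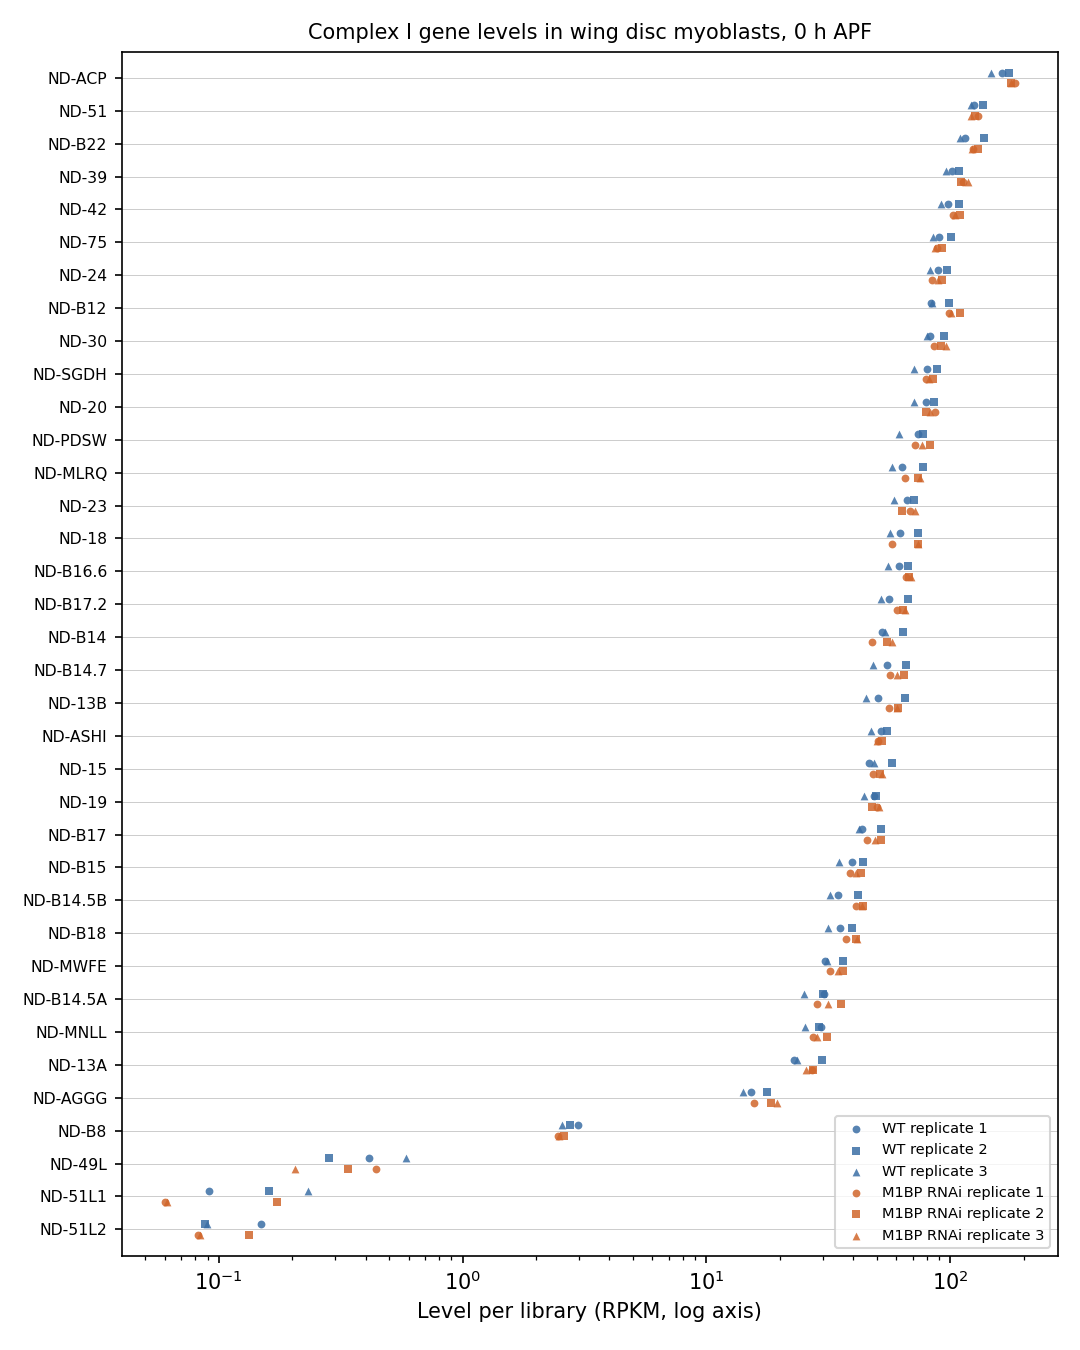
Level of each complex I gene in each of the 6 libraries in RPKM on a logarithmic axis, with WT in blue, M1BP RNAi in orange and the replicate number given by the symbol. ND-ACP lies highest and ND-B8 stands well below the other subunit genes, while the paralogs lie below 1 RPKM. ND-20L, ND-24L and ND-B14.5AL had libraries at 0 and are not drawn, nor is 1 core gene.

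The threshold taken from the study's methods was an adjusted p no higher than 0.001 together with a 1.5-fold change. No subunit gene passed it by edgeR's quasi-likelihood test, whereas 49 of the 10306 tested genes did (0.475%). None reached an adjusted p of 0.05 either, a level reached by 4.09% of tested genes, and the smallest adjusted p among the members was 0.184 (edgeR quasi-likelihood, Benjamini-Hochberg). At an unadjusted p under 0.05 there were 3 of 34 genes, all higher in M1BP RNAi, by edgeR and likewise 3 by the Wald test of DESeq2. That is 8.82% of the subunit genes, beside 10.1% of tested genes with such a p and a higher value in M1BP RNAi and 10.1% with a lower one. The estimates were small. Log2 fold changes, given as M1BP RNAi over WT, ranged from -0.13 to 0.24 with a median of 0.080, and 26 of 34 (76.5%) were above 0, beside a median of 0.0070 and 51.3% above 0 over all tested genes. All 34 upper bounds of the 95% intervals lay below a 1.5-fold increase, and with ND-B8 left aside the lower bounds lay at or above -0.31. A p that misses the threshold does not show that a gene was unchanged, but these intervals limit the size of what could have been missed.

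**Figure D2:**
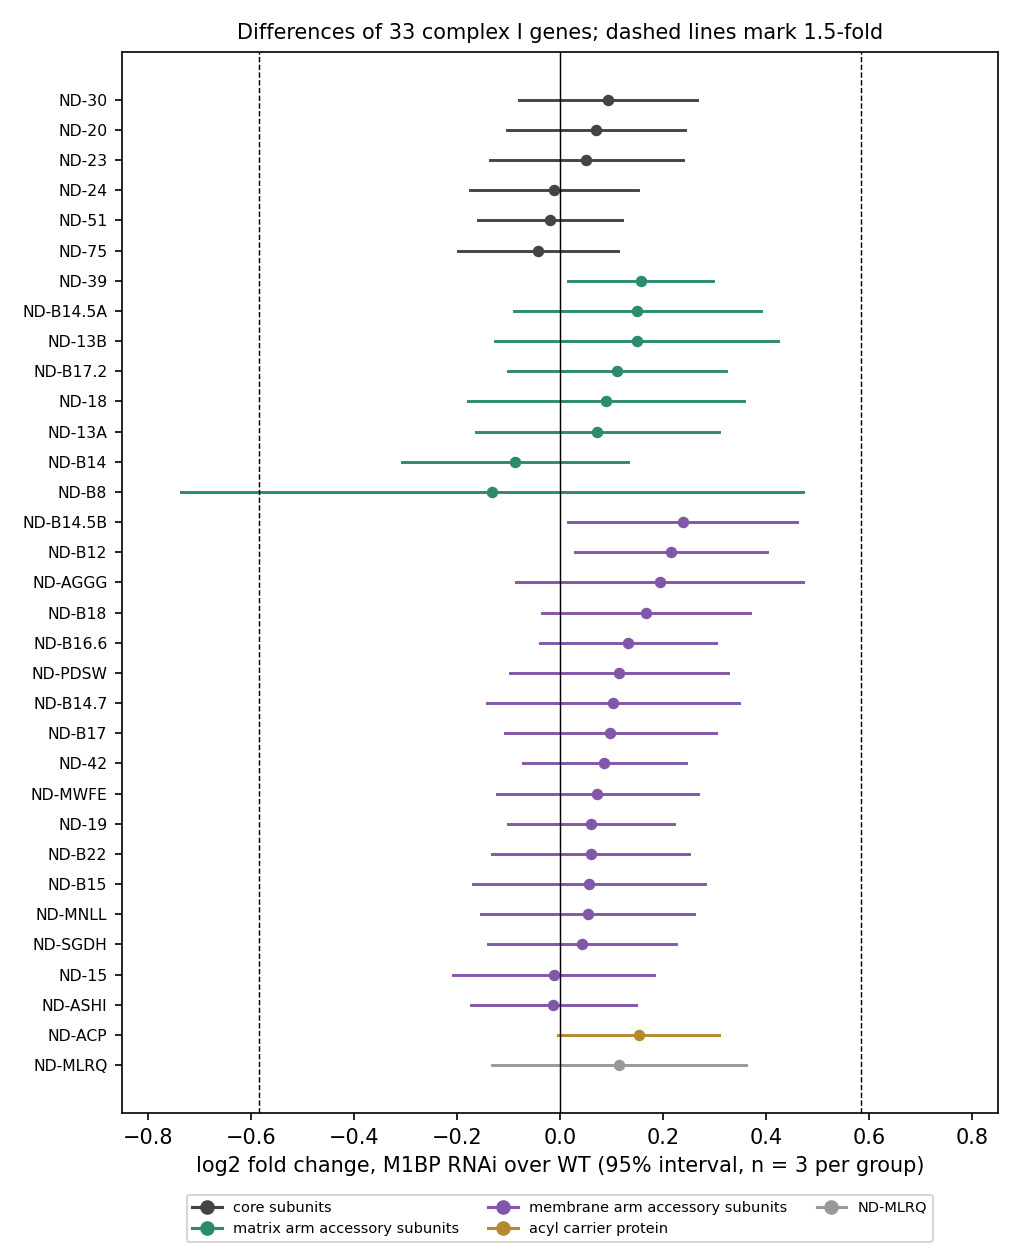
Fold change in log2, M1BP RNAi over WT (points), with its 95% interval (lines) for 33 of the 34 subunit genes, grouped by role and coloured by group, with 3 libraries per genotype. Dashed lines mark 1.5-fold in either direction. The 6 core genes drawn centre on 0 and the intervals of ND-B12, ND-39 and ND-B14.5B lie above it.

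The 7 catalytic core genes had log2 fold changes from -0.042 to 0.093, a median of -0.011 and 3 of 7 above 0. They are longer than the accessory genes, with a median of 1336 exonic bases against 751 for the matrix arm and 844 for the membrane arm accessory genes. Their WT levels had a median of 89.3 RPKM, with ND-23 lowest at 65.4. ND-75 (chrX:8248651-8251687), the counterpart of human NDUFS1 and the largest iron-sulphur subunit, stood at 89.7, 100.2 and 85.1 RPKM in WT and at 88.5, 92.4 and 86.2 in M1BP RNAi. The M1BP RNAi libraries fell inside the WT range, with a log2 fold change of -0.042 (SE 0.069, 95% interval -0.20 to 0.11). ND-51 (chr2L:6060842-6062757), counterpart of NDUFV1, binds NADH and the flavin, and read 124.7, 136.8 and 121.4 RPKM in WT against 129.3, 126.7 and 121.9 in M1BP RNAi. These libraries also lay within the WT range, and the log2 fold change was -0.019 (SE 0.062, 95% interval -0.16 to 0.12). ND-24 (chrX:17632089-17633509), counterpart of the iron-sulphur subunit NDUFV2, gave 89.0, 96.5 and 82.4 RPKM in WT and 84.0, 92.6 and 89.2 in M1BP RNAi, again within the WT range. Its log2 fold change was -0.011 (SE 0.073).

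The remaining core genes belong to the part of the matrix arm that leads to the ubiquinone site. ND-20 (chrX:15985473-15986808), counterpart of NDUFS7, which holds the last iron-sulphur cluster before ubiquinone, had 79.8, 86.0 and 70.7 RPKM in WT and 86.3, 79.4 and 82.6 in M1BP RNAi. Only WT replicate 3 stood below the M1BP RNAi libraries, and the log2 fold change was 0.071 (SE 0.077). ND-23 (chr3R:15836048-15837117), counterpart of NDUFS8 and an iron-sulphur subunit, had the lowest level of the core at 66.3, 71.1 and 58.9 RPKM in WT, and 68.4, 63.3 and 71.5 in M1BP RNAi. The groups overlapped, with a log2 fold change of 0.051 (SE 0.084). ND-30 (chr3L:3158485-3159578), counterpart of NDUFS3, had 82.4, 94.2 and 80.2 RPKM in WT and 86.0, 91.8 and 96.1 in M1BP RNAi, and at 0.093 (SE 0.077, 95% interval -0.080 to 0.27) it had the highest fold change of the core. Its groups overlapped through WT replicate 2.

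The 8 accessory genes of the matrix arm had log2 fold changes from -0.13 to 0.16, with a median of 0.10 and 6 of 8 above 0, and WT levels from 2.76 to 102.3 RPKM with a median of 55.2. ND-39 (chr3L:20492082-20497084), counterpart of the nucleotide-binding subunit NDUFA9, was the most abundant of them. It had 101.8, 109.0 and 96.0 RPKM in WT and 113.2, 110.9 and 118.0 in M1BP RNAi, so each M1BP RNAi library stood above each WT library. The log2 fold change was 0.16 (SE 0.063, 95% interval 0.016 to 0.30, unadjusted p = 0.033), with an adjusted p of 0.201 (edgeR quasi-likelihood, Benjamini-Hochberg).

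ND-B8 (chr2L:4454626-4455207), counterpart of NDUFA2, was the exception in level. Its counts were 70, 55 and 59 in WT and 53, 52 and 52 in M1BP RNAi, or 2.76 ± 0.205 RPKM and 2.52 ± 0.0832 RPKM (SD, n = 3). The next lowest subunit gene, ND-AGGG, was 5.68 times higher in the WT mean and ND-ACP 58.6 times higher. Of the 460 exonic bases of ND-B8, 71 are shared with Gs1l on the opposite strand. With so few counts its log2 fold change of -0.13 had the widest interval of the subunit genes, -0.74 to 0.47 (SE 0.27), and it is the only one whose interval reached past 1.5-fold in the lower direction. The other matrix arm accessory genes, for ND-18, ND-13A, ND-13B, ND-B14, ND-B14.5A and ND-B17.2, had overlapping groups. ND-18 is the counterpart of NDUFS4 and ND-13A that of NDUFS6, which carries zinc. The only one of these 6 below 0 was ND-B14, counterpart of the LYR-motif subunit NDUFA6, at -0.087 (SE 0.098).

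The 17 accessory genes of the membrane arm included the largest positive estimates, with log2 fold changes from -0.012 to 0.24, a median of 0.086 and 15 of 17 above 0. ND-B14.5B (chr2L:3144953-3145848), counterpart of NDUFC2, had 34.7, 42.0 and 32.1 RPKM in WT and 40.9, 44.1 and 43.2 in M1BP RNAi. Its groups overlapped only through WT replicate 2, and its log2 fold change of 0.24 (SE 0.0997, 95% interval 0.015 to 0.46) was the highest of the subunit genes. ND-B12 (chr2R:21658078-21658777), counterpart of NDUFB3, had 83.1, 98.9 and 83.8 RPKM in WT and 98.8, 109.1 and 100.8 in M1BP RNAi. Here WT replicate 2 and M1BP RNAi replicate 1 were almost level and the other libraries were separate, with a log2 fold change of 0.22 (SE 0.083, 95% interval 0.030 to 0.40). The adjusted p was 0.217 for ND-B14.5B and 0.184 for ND-B12 (edgeR quasi-likelihood, Benjamini-Hochberg), so neither passed.

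ND-B22 (chr2L:13370103-13371110), counterpart of the LYR-motif subunit NDUFB9, was the most abundant transcript of the membrane arm group, at 114.4, 137.5 and 109.2 RPKM in WT and 124.1, 129.8 and 122.6 in M1BP RNAi. The M1BP RNAi libraries lay within the WT range (log2 fold change 0.060, SE 0.086), and 227 of its exonic bases are shared with CG31855 on the opposite strand. ND-AGGG (chr3L:24976254-24977118), counterpart of NDUFB2, was the least abundant at 15.2, 17.6 and 14.2 RPKM in WT and 15.7, 18.5 and 19.5 in M1BP RNAi. Its groups overlapped between WT replicate 2 and M1BP RNAi replicate 1, and the log2 fold change was 0.19 (SE 0.12, 95% interval -0.085 to 0.47). Of the 17 genes, ND-15 and ND-ASHI, counterparts of NDUFS5 and NDUFB8, lay just below 0, both at -0.012 (SE 0.088 and 0.072). The counts of ND-MNLL were identical to those of CG45089, with which it shares all 720 exonic bases, and ND-MWFE shares 167 bases with TppII and 128 with Nrk, so these values are uncertain.

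ND-ACP (chr3L:1329949-1331631), counterpart of NDUFAB1, encodes the mitochondrial acyl carrier protein, which serves fatty acid synthesis and iron-sulphur cluster assembly beside its place in complex I. It had the highest level of all members, at 163.7, 174.3 and 146.7 RPKM in WT and 184.2, 176.7 and 178.2 in M1BP RNAi. All M1BP RNAi libraries stood above all WT libraries, WT replicate 2 being close to the lowest of them. The log2 fold change was 0.15 (SE 0.070, 95% interval -0.0025 to 0.31), with an adjusted p of 0.255 (edgeR quasi-likelihood, Benjamini-Hochberg). ND-MLRQ (chr3L:23339326-23345936), counterpart of NDUFA4, which in mammals is now placed in complex IV, had 63.1, 77.5 and 57.5 RPKM in WT and 65.5, 73.7 and 75.2 in M1BP RNAi. The M1BP RNAi libraries fell within the WT range, with a log2 fold change of 0.11 (SE 0.11). ND-39 and ND-ACP were thus the 2 of 34 subunit genes (5.88%) whose M1BP RNAi libraries all stood above the WT libraries, beside 13.8% of all tested genes, and none had them all below, beside 12.3%.

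The subunit genes moved together from library to library, above all within WT. The SD of their summed RPKM, in log2 units, was 0.14 over the WT libraries and 0.037 over the M1BP RNAi libraries. For each library the log2 level of a gene was taken relative to its mean over the WT libraries. The median over the 34 genes was -0.026, 0.14 and -0.13 in WT replicates 1, 2 and 3 and 0.014, 0.13 and 0.11 in M1BP RNAi replicates 1, 2 and 3. In WT replicate 2, 33 of 34 genes stood above the WT mean, and in WT replicate 3 only 1 did. M1BP RNAi replicate 1, with 22 of 34 genes above, lay nearer to WT replicate 1 than to the other M1BP RNAi libraries, which each had 29. All 34 genes were higher in WT replicate 2 than in WT replicate 3, by a median of 0.27, whereas the genotypes differed by 0.090 in the mean of these library medians. The first value is a gap between single libraries and the second a difference of means, so they are unlike measures.

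**Figure D3:**
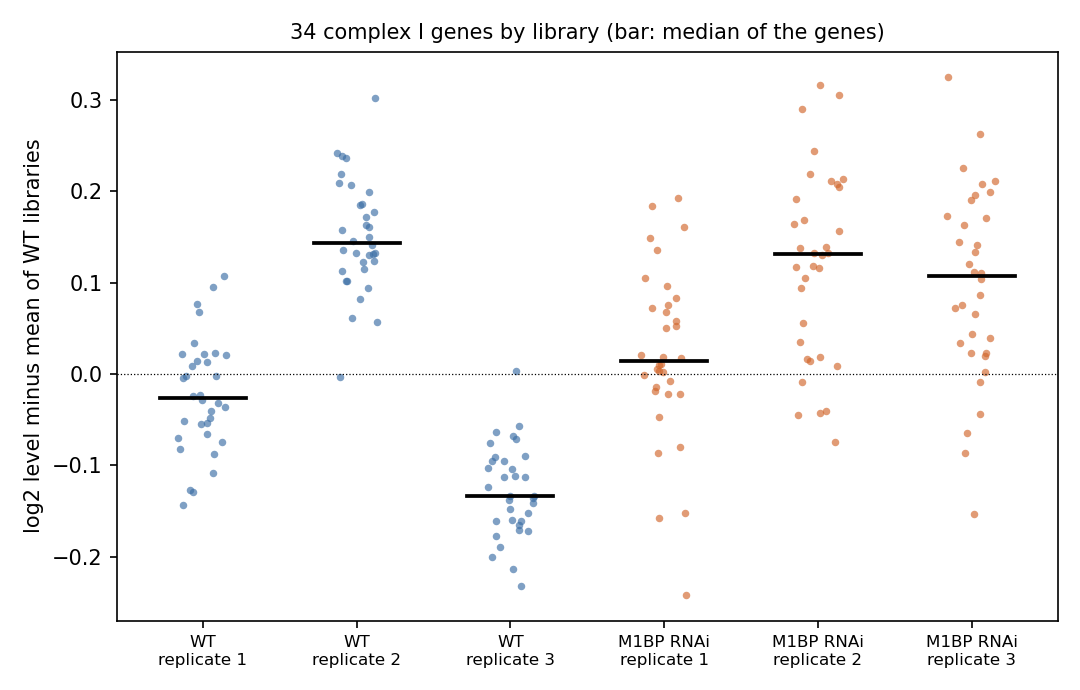
Log2 level of each of the 34 subunit genes (points) relative to its mean over the WT libraries, by library, with the median of the genes as a bar. The WT medians span from -0.13 in replicate 3 to 0.14 in replicate 2, and the 3 M1BP RNAi medians lie within that span.

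The values depended on which WT libraries entered. Without WT replicate 2, 32 of 34 genes were above 0 with a median log2 fold change of 0.16. Then 16 had an unadjusted p under 0.05, and ND-B14.5B and ND-B12 reached adjusted p-values of 0.032 and 0.043 (edgeR quasi-likelihood, Benjamini-Hochberg). The share of all tested genes with such a p is given above only for all 6 libraries. Whether 16 is particular to the subunit genes therefore cannot be told. Without WT replicate 3, 18 of 34 were above 0 with a median of 0.011, and none had an unadjusted p under 0.05.

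The shared movement was also seen in part among short genes at large. Tested genes under 800 exonic bases had a median log2 fold change of 0.070, those from 800 to 1600 of 0.063 and those above 1600 of -0.022. The shares above 0 were 59.95%, 63.08% and 44.28% in these classes, beside 76.5% of the subunit genes. The subunit genes were short, with a median of 843 bases against 1972 over all tested genes. The library medians of the 1246 tested genes under 800 bases were 0.0028, 0.073 and -0.075 in WT and 0.019, 0.11 and 0.12 in M1BP RNAi. WT replicate 3 was lowest and WT replicate 1 next lowest, as for the subunit genes. WT replicate 2, the highest library for the subunit genes, lay below M1BP RNAi replicates 2 and 3 for the short genes. The WT medians spanned 0.15 for the short genes and 0.28 for the subunit genes. The 14 subunit genes under 800 bases had a median log2 fold change of 0.11, the 17 from 800 to 1600 of 0.071 and the 3 above of 0.086. With an offset for exonic length in each library, the median over the 34 was 0.017 and 19 were above 0. By role it was then -0.034 for the core, 0.025 for the matrix arm accessory genes and 0.029 for those of the membrane arm, and differences between roles were not tested. The 9 subunit genes on the X chromosome had a median of 0.071 and the 25 on the autosomes of 0.086.

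The balance among subunit transcripts was examined apart from their sum. Each library was centred on the median log2 level of its 34 subunit genes. The median SD of a gene over the WT libraries, in log2 units, then went from 0.15 to 0.067. Over the M1BP RNAi libraries it went from 0.067 to 0.092, so this centring narrowed the spread in WT and widened it in M1BP RNAi. The centre rests on the genes midway in level and is not the library median of relative levels given above. The widening therefore need not reflect the balance among subunits. After centring, the M1BP RNAi libraries stood above all WT libraries for ND-B14.5B (by 0.15 in log2), ND-AGGG (0.10) and ND-B18 (0.079), which is 3 of 34 (8.82%) beside 5.42% of all tested genes. They stood below all WT libraries for ND-B14 alone (-0.18), 2.94% beside 9.76%. ND-AGGG, ND-B14.5B and ND-B18 encode membrane arm subunits, and ND-B14 a matrix arm subunit. ND-B18 shares 91 exonic bases with opm and ND-B14 shares 79 with CG12942, each on the opposite strand. The genes singled out depended on the scaling. As shares of the summed RPKM of the subunit genes, all M1BP RNAi libraries stood above WT for ND-B14.5B, ND-B18 and ND-B12, again 8.82% and beside 7.6% of all tested genes. They stood below WT for ND-75, ND-24, ND-ASHI and ND-B8 (11.8%, beside 12.9%), while ND-B14 and ND-AGGG overlapped. The share of ND-75 was 4.07%, 4.03% and 4.13% in WT and 3.84%, 3.82% and 3.60% in M1BP RNAi, that of ND-24 between 3.88% and 4.04% in WT and between 3.64% and 3.83% in M1BP RNAi. ND-ACP, the largest contributor, made up between 7.005% and 7.44% in WT and between 7.30% and 7.996% in M1BP RNAi, with overlap. Both scalings were chosen after the values were seen, and these differences were not tested.

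The paralogs were almost silent. ND-49L counts were 36, 21 and 50 in WT and 35, 25 and 16 in M1BP RNAi. Its groups overlapped, with a log2 fold change of -0.38 (SE 0.44, 95% interval -1.36 to 0.59). ND-51L1 counts were 10, 15 and 25 in WT and 6, 16 and 6 in M1BP RNAi, also overlapping, with a log2 fold change of -0.72 (SE 0.60), and ND-51 was 790 times higher per kilobase in WT. The other 4 paralogs did not pass the filter. ND-51L2 counts were 12, 6 and 7 in WT and 6, 9 and 6 in M1BP RNAi, and ND-20L had 3 counts in WT replicate 3, 3 in M1BP RNAi replicate 2 and 0 elsewhere. ND-24L and ND-B14.5AL had 0 counts in each of the 6 libraries. A count of 0 allows up to 3 counts, which scaled to the library size alone (CPM) is 0.0579 to 0.0696 in these libraries, for counting error only.

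The fold changes were also set beside the promoter stretches, as a description. The 7 with the core had a median log2 fold change of 0.090 and 6 of 7 above 0, the 17 listed without it 0.060 and 11 of 17, and the 10 with no listed stretch 0.11 and 9 of 10. Of the 5 genes shown above with the core, ND-ACP was at 0.15, ND-PDSW at 0.11, ND-B17 at 0.098, ND-18 at 0.090 and ND-13A at 0.073, with standard errors between 0.070 and 0.12. The 5 core genes shown without it lay between -0.042 (ND-75) and 0.093 (ND-30). ND-PDSW and ND-B17 encode membrane arm subunits, the counterparts of NDUFB10 and NDUFB6.

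None of the other complex I genes passed the threshold of the study either. Of the 3 subunit genes without an ND- symbol, NP15.6 (counterpart of NDUFB11) had a log2 fold change of 0.16 and CG11752 (NDUFV3) of 0.20. CG40472, which RefSeq also lists as ND-AGGGL, was counted 86, 86 and 88 times in WT and 128, 143 and 157 times in M1BP RNAi, with no overlap. Its log2 fold change was 0.81 (SE 0.21, unadjusted p = 0.0037), and its adjusted p of 0.068 (edgeR quasi-likelihood, Benjamini-Hochberg) did not pass 0.05. Per kilobase it was at 3.92 RPKM in WT and 6.87 in M1BP RNAi, below the levels of ND-AGGG.

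Among 13 assembly factors, which help to build the complex without remaining in it, 9 were above 0 and 4 below with a median log2 fold change of 0.067. Their library medians relative to WT were -0.034, 0.021 and 0.049 in WT and 0.081, 0.036 and -0.0066 in M1BP RNAi. Within WT, replicate 3 was thus their highest library, whereas it was the lowest for the subunit genes. At an unadjusted p under 0.05 there were 1 higher and 2 lower in M1BP RNAi, beside 10.1% of all tested genes in each direction. The groups did not overlap for 2 higher and 2 lower, beside 13.8% and 12.3% of all tested genes. The log2 fold change of CG43346 was 0.37 with an SE of 0.080 (adjusted p = 0.033, edgeR quasi-likelihood, Benjamini-Hochberg), past 0.05 but not past the threshold of the study, with counts of 1813, 1762 and 1946 in WT and of 2128, 2242 and 2318 in M1BP RNAi. All 2482 of its exonic bases are shared with CG43345 on the same strand, so its value is uncertain. The lowest of the list was CG13392, which RefSeq also lists as dTMEM126B, at -0.65 (SE 0.22, adjusted p = 0.139, edgeR quasi-likelihood, Benjamini-Hochberg). CG3270, at -0.43 (SE 0.12), had an unadjusted p of 0.0049 and an adjusted p of 0.078 by the same test, with counts of 997, 666 and 993 in WT and of 643, 538 and 654 in M1BP RNAi, so its groups did not overlap.

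The 7 complex I subunits of the mitochondrial DNA had a median log2 fold change of 0.083, from -0.14 for mt:ND4 to 0.33 for mt:ND2, with none at an unadjusted p under 0.05. Their libraries followed another order than those of the nuclear genes. The medians relative to WT were -0.29, 0.10 and 0.21 in WT and 0.079, -0.39 and 0.34 in M1BP RNAi, so the highest and the lowest library were both M1BP RNAi libraries. The nuclear subunit genes of complexes II, III, IV and V had median log2 fold changes of 0.13, 0.058, 0.13 and 0.084. Within WT they too were highest in replicate 2, with medians from 0.10 to 0.19, and low in replicate 3, with medians from -0.18 to -0.057, as complex I was.

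**Figure D4:**
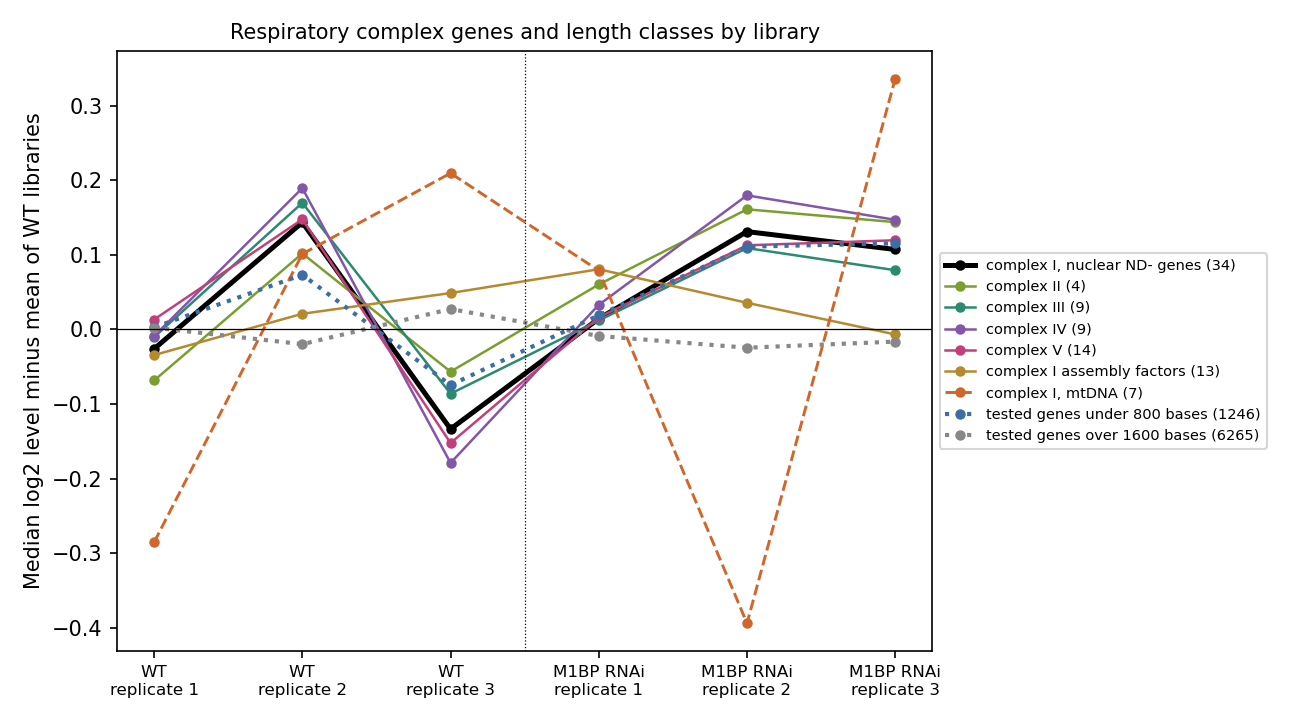
Median log2 level relative to the mean of the WT libraries, by library, for the nuclear complex I genes (black), the nuclear genes of complexes II to V and the assembly factors (coloured lines), the mitochondrial complex I genes (dashed) and tested genes by exonic length (dotted), with the number of genes in brackets. Lines join the libraries only to guide the eye. Within WT, the nuclear complexes peak in replicate 2 and complexes I, III, IV and V dip in replicate 3, whereas the mitochondrial genes dip in WT replicate 1 and M1BP RNAi replicate 2.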

How the data were processed

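The authors deposited raw counts per gene, with reads aligned uniquely to dm6 and summed over exons. The submitters' processing notes name bcl2fastq 2.17.1.14, Subread 2.0.3, featureCounts and DESeq2 1.3.0. The aligner, annotation release and use of strand were not given in the sources used here. Per the labels, cDNA came from 2 ng of RNA through 10 PCR cycles, so amplified copies cannot be told from molecules. The labels give 25000 cells per sample in one field and 50000 in another. The deposited comparison table holds the authors' fold changes and p-values, of which none was used. Only its identifiers and symbols were read. Columns of the count table were matched to libraries by name.

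All 6 libraries were fitted with edgeR 4.0.16 in R 4.3.3 (TMM factors, filterByExpr with a minimum of 10 counts, glmQLFit, glmQLFTest, genotype as the single term), and p-values were adjusted by the Benjamini-Hochberg method across 10306 tested genes. The procedure was tested on simulated data. Intervals are 95%. Log2 levels by library used a pseudocount of 0.5 normalised counts. Replicates of a genotype differed beyond sampling noise (chi-square per degree of freedom 10.7 to 51.7). Alternatives were DESeq2 1.42.0, other scalings, no filter, a replicate block, an offset for exonic length and leaving out each library. Values in every library were given for the core subunits except 1 that is not reported here, members at an unadjusted p under 0.05, the highest and lowest member of each role and members with low counts. Of other complex I genes, those at an adjusted p of at most 0.05 and the extremes were named. ND-B14, ND-18, ND-13A, ND-B17, ND-PDSW, ND-B18, ND-15, ND-ASHI and CG3270 were singled out after their values were seen. The members, roles and lists were chosen with earlier results of these data known. Human counterparts and synonyms came from RefSeq. Protein sequences, the DRE motif and motif shares over all promoters were not analysed here.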

Additional observations from a re-analysis of the deposited data

How the results depend on the processing

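No member passed the threshold of the study under any of the alternatives run. The number of genes past it over the whole table went from 49 to 175 with DESeq2, 99 without the filter on low counts, 223 at an adjusted p of at most 0.05 with 1.5-fold, 19 with the replicate block, 26 with the block and the length offset, and between 17 and 31 with 1 library left out. The deviations of same-numbered libraries correlated at 0.0314, -0.0459 and -0.162, beside -0.0852 to 0.12 for libraries with different numbers. These values give no sign of pairing by number but cannot exclude that same-numbered libraries were prepared together. No number is tied to a batch in the labels. With the block, 4 members had an unadjusted p under 0.05 and the median log2 fold change of the 34 subunit genes was 0.0849. Leaving out 1 library gave between 0 and 16 members at an unadjusted p under 0.05, between 0 and 2 with an adjusted p up to 0.05, and a median of the 36 tested members between 0.0038 and 0.156. Shares of all tested genes at these p-values are not given for the block or the left-out fits. The direction turned for some genes close to 0. With the length offset, ND-23 went to -0.024 and ND-B22 to -0.0124, or -0.0253 and -0.0106 with the block. With 1 library left out, the ranges were -0.0993 to 0.0207 for ND-75, -0.0605 to 0.0283 for ND-51, -0.0729 to 0.0424 for ND-24, -0.0084 to 0.1321 for ND-20, -0.0265 to 0.1086 for ND-23 and -0.0122 to 0.1608 for ND-B22. The cause was not tested. Depth limits ND-B8 and the paralogs, with at most 70 counts in a library.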
